A study of Mus musculus with 8 samples.

Results

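The 43 protein-coding histone genes that RefSeq places on mouse chromosome 13 between 21.7 and 23.7 Mb (GRCm38) were examined for open chromatin at their promoters in the lens. They were taken by position and by name (symbols or older symbols beginning with Hist1h, H1f, H2ac, H2bc, H3c or H4c). The rule uses no measured value, although the cluster was singled out with earlier results of these data known. The members stood among 21000 protein-coding genes with a curated RefSeq transcript. They comprised 4 genes for the linker histone H1, 11 for H2A, 13 for H2B, 6 for H3 and 9 for H4. One H2B gene carries the RefSeq symbol H4bc24 and the older symbol Hist1h2br, and it was counted with H2B.

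Open chromatin was measured by ATAC-seq, in which the transposase Tn5 inserts sequencing adaptors into accessible DNA. CD1 mice, an outbred strain, gave lens epithelium and fiber tissue, which was microdissected from embryos at E14.5 and from newborns at P0.5. No genetic change or treatment is named for any group, several lenses were pooled in each sample, and each of the 4 groups had 2 libraries. The authors used fewer cells at E14.5 than at P0.5, and at P0.5 fewer for fibers than for epithelium. This difference cannot be told apart from stage or, at P0.5, from tissue. The authors pooled both libraries of a group and deposited 1 list of peaks for each group, here called embryonic epithelium, embryonic fibers, newborn epithelium and newborn fibers. The 4 lists hold no value of a single library, so that no value below has an error between replicates and no test between groups was possible. Each list enters a comparison of tissues and a comparison of stages, so these comparisons share their lists.

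The genes of this cluster code for the replication-dependent histones, the bulk of the proteins around which newly made DNA is wrapped. Such genes are transcribed mainly while a cell copies its DNA, and their usual messenger RNAs are not spliced and end in a stem-loop instead of a poly(A) tail. RefSeq gave every member an unspliced transcript and 5 of the 43 (H2bc22, H2bc23, H4bc24, H2bc6 and H2bc4) a spliced one as well. Many H2A and H2B genes lie head to head with a shared spacer between their start sites. In the lens, the anterior epithelium holds the dividing cells, whereas fiber cells leave the cell cycle as they elongate and differentiate.

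The members lay in 3 stretches separated by more than 100 kb. The first, chr13:21713711-21839530 with a margin of 2 kb beyond the outer gene ends, held 18 members. The second, chr13:22033122-22045658, held 5 and the third, chr13:23529044-23700458, held 20. Of the members, 20 formed 10 head-to-head pairs of an H2A with an H2B gene, with spacers of 163 to 267 bp (median 203.5 bp). Spacers are shown here for pairs that differ in the lists described below, as the plus strand of GRCm38 from RefSeq annotation. Capitals mark CCAAT, ATTTGCAT or AAACACA on either strand and TATAAA in the direction of a member of the pair. The H2ac22 and H2bc22 spacer (chr13:21787249-21787487) had a peak in all 4 lists, the H2ac12 and H2bc12 spacer (chr13:22035644-22035820) and the H2ac8 and H2bc8 spacer (chr13:23571221-23571399) belong to pairs without a peak in newborn fibers, and the H2bc23 and H2ac23 spacer (chr13:21810200-21810366) belongs to a pair without a peak in any list.
H2ac22 and H2bc22: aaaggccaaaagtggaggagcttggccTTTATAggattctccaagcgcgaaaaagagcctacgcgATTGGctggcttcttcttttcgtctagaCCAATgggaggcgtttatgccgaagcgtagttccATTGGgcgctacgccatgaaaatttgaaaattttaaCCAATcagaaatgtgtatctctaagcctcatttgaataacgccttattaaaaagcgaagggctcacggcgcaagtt
H2ac12 and H2bc12: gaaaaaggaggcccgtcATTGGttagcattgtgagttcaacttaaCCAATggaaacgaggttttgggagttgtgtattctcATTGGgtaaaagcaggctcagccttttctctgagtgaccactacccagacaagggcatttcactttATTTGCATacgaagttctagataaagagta
H2ac8 and H2bc8: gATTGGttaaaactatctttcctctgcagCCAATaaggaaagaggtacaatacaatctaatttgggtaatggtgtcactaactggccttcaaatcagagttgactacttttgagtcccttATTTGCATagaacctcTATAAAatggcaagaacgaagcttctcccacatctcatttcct
H2bc23 and H2ac23: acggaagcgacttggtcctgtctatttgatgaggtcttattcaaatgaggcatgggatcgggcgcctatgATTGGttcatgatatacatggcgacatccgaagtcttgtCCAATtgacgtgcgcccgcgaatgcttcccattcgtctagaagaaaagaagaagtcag

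For members outside such pairs, the 150 bases before the start site are shown on the strand of the gene, with the same marks. H3c6 (chr13:23562386-23562535, minus strand) held the best-ranked peak of the members in both embryonic lists, H4c8 (chr13:23530894-23531043, plus strand) had a peak in all 4 lists, and H4c6 (chr13:23551669-23551818, minus strand) had none in newborn fibers. H1f4 (chr13:23622559-23622708, minus strand) and H1f5 (chr13:21780626-21780775, minus strand) are H1 genes with and without a peak in newborn fibers.
H3c6: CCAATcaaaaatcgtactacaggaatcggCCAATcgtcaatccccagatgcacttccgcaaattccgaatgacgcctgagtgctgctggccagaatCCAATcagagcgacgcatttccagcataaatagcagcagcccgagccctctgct
H4c8: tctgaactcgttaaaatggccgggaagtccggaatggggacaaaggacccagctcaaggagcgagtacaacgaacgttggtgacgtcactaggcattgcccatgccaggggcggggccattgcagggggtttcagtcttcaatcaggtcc
H4c6: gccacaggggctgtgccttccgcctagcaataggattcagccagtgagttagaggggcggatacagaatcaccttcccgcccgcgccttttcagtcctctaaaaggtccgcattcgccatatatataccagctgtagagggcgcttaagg
H1f4: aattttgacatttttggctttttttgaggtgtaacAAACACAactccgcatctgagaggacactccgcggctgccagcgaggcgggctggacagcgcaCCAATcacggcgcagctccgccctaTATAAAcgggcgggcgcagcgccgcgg
H1f5: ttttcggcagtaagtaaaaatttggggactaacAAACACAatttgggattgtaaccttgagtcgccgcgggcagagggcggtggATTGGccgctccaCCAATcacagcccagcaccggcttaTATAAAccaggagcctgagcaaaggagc

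The motifs were counted in the 250 bases before the start site for the 40 members that matched the RefSeq promoter table (GRCm38.p6) and for 16483 genes in all. H3c7, H2bc6 and H2bc4 had no matching entry. The median share of G and C in these bases was 45.4% for the members and 55.6% for all genes. Its part in the motif shares below was not tested. CCAAT, the sequence bound by NF-Y, occurred on either strand before 33 of 40 members (82.5%) and before 36.8% of all genes. By class, it was found before 4 of 4 H1, 11 of 11 H2A, 11 of 11 H2B and 5 of 5 H3 genes, but before 2 of 9 H4 genes. All 10 spacers of the head-to-head pairs held CCAAT at least 2 times, and the members of a pair share these copies. The octamer ATTTGCAT, bound by Pou2f1 (Oct1), was read on either strand before 6 of 40 members (15%) and 1.63% of all genes, and these 6 members were H2ac12, H2bc12, H2ac8, H2bc8, H2ac6 and H2bc14. Among the spacers, those of H2ac12 and H2bc12, H2ac8 and H2bc8, and H2ac6 and H2bc4 held it. AAACACA, known from H1 promoters, lay on either strand before 4 of 4 H1 genes, 5 of 40 members in all (12.5%) and 5.44% of all genes. TATAAA on the strand of the gene occurred before 15 of 40 members (37.5%) and 8.38% of all genes, among them 3 of 4 H1, 3 of 5 H3 and 6 of 9 H4 genes. The match nearest to the start site lay 16 to 250 bp before it, and in 8 of the 15 members 25 to 45 bp before it. Among the H3 and H4 genes, only H3c10 (31 bp) and H4c4 (32 bp) had it at that distance. Each motif was searched on its own, so a base may count for more than 1 of them, and a match is no measure of binding.

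The label of replication-dependent genes was checked on the reference sequence. A stem of 6 bases beginning with GG around a loop of 4 bases beginning with TTT, the shape of the histone stem-loop, followed the stop codon within 150 bases in 42 of 43 members (97.7%) and in 0.424% of all 21000 genes. It began 24 to 56 bases after the stop codon (median 31.5 bases). The letters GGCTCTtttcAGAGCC, with the stem in capitals, occurred in 27 members. H3c8 was the member without this shape. H1f6 (older symbol Hist1h1t) codes for a testis H1 and was kept, as the rule asks only for position and name.

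A peak was assigned to a gene when it overlapped the promoter window of 2 kb on either side of a start site. Peaks were ranked within their own list by the fold enrichment that the authors' peak caller gave, with 0% for the top of the list. All 21000 genes were also ordered by their best promoter peak, which gives each gene a place in percent that can be set beside its place in another list. Coverage is the share of the promoter window that lay under peaks.

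As for the lists as a whole, they held 100003 peaks in embryonic epithelium, 123743 in embryonic fibers, 58592 in newborn epithelium and 62995 in newborn fibers, and 87.9%, 80.5%, 86.7% and 48.9% of them had a q value under 0.001. Read counts were not used here, so that the depth behind a peak is known only through its q value. Of the markers of the tissues, 4 of 4 lens epithelium genes had a promoter peak in every list, and 6, 7, 5 and 6 of 8 lens fiber genes did in the same order of lists. The lens fiber genes had a median rank of 2.12% of the list in embryonic fibers and 7.06% in newborn fibers, against 11.2% and 20.5% in embryonic and newborn epithelium. The lens epithelium genes differed little between the tissues. Their median rank was 7.26% in embryonic epithelium and 7.80% in embryonic fibers, and 9.39% and 9.81% in newborn epithelium and fibers. Markers of cornea and skin epithelium had no promoter peak in any list, those of blood had at most 1 of 4, and those of vessels (3, 4, 3 and 2 of 4) and retina (4, 4, 2 and 1 of 4) had more at E14.5 than in newborn fibers. The part of these other tissues in the results below was not tested.

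At E14.5, every member outside a stretch of repeated sequence had a promoter peak in both tissues. A promoter peak was called at 37 of 43 members in embryonic epithelium, against 70.2% of all genes, and at 37 of 43 in embryonic fibers, against 71.1%. The 37 members were the same in both lists. At P0.5, a peak was called at 35 of 43 members in epithelium, against 66.9% of all genes, and at 23 of 43 in fibers, against 64.6%. Over the 37 members outside the repeated sequence the share was 100% in both embryonic lists, 94.6% in newborn epithelium and 62.2% in newborn fibers, the last being near the share of all genes there. With a peak counted only for its nearest start site, 15 members had a newborn fiber peak, against 61.0% of all genes. Over all genes the share was 6.55 percentage points lower in newborn than in embryonic fibers.

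**Figure D1:**
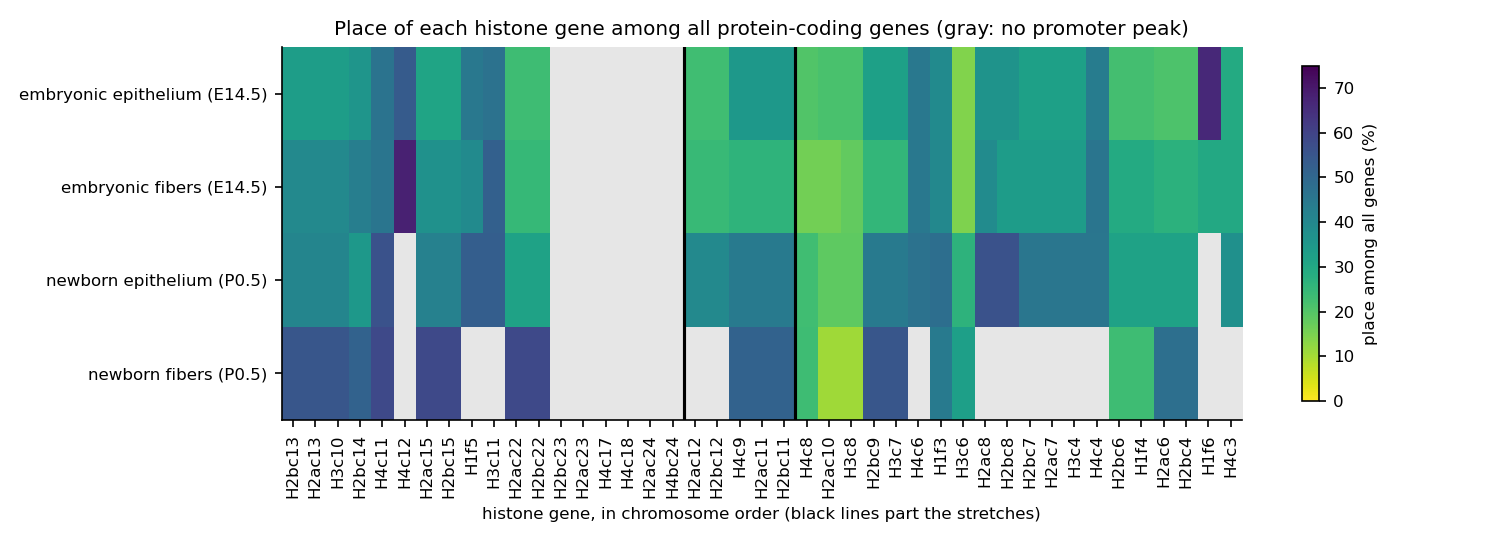
Place of each of the 43 histone genes (columns, in chromosome order) among 21000 protein-coding genes ordered by their best promoter peak, in each pooled list (rows), with the color scale in percent and low values for strong peaks. Gray cells, 6 in both E14.5 rows, 8 in newborn epithelium and 20 in newborn fibers, have no promoter peak.

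The 6 members without a peak in any list were H2bc23, H2ac23, H4c17, H4c18, H2ac24 and H4bc24. They are neighbors at the end of the first stretch and are arranged as mirrored copies. H2bc23 and H4bc24 are identical over 501 of 501 bases around their start sites, H2ac23 and H2ac24 share their coding sequence, and so do H4c17 and H4c18. Of all stretches of 75 bases, the length of a read, in their promoter windows, 75.8% (H4c18) to 98.2% (H4bc24) had a second exact copy in the genome. Among the other 37 members this share ran from 0% (H1f5 and H1f6) to 32.4% (H3c7), and each of these 37 had a peak in at least 2 lists. The ranges do not overlap. How reads that match several places were treated before peaks were called was not examined here, and whether the promoters of the 6 members were open was not tested.

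**Figure D2:**
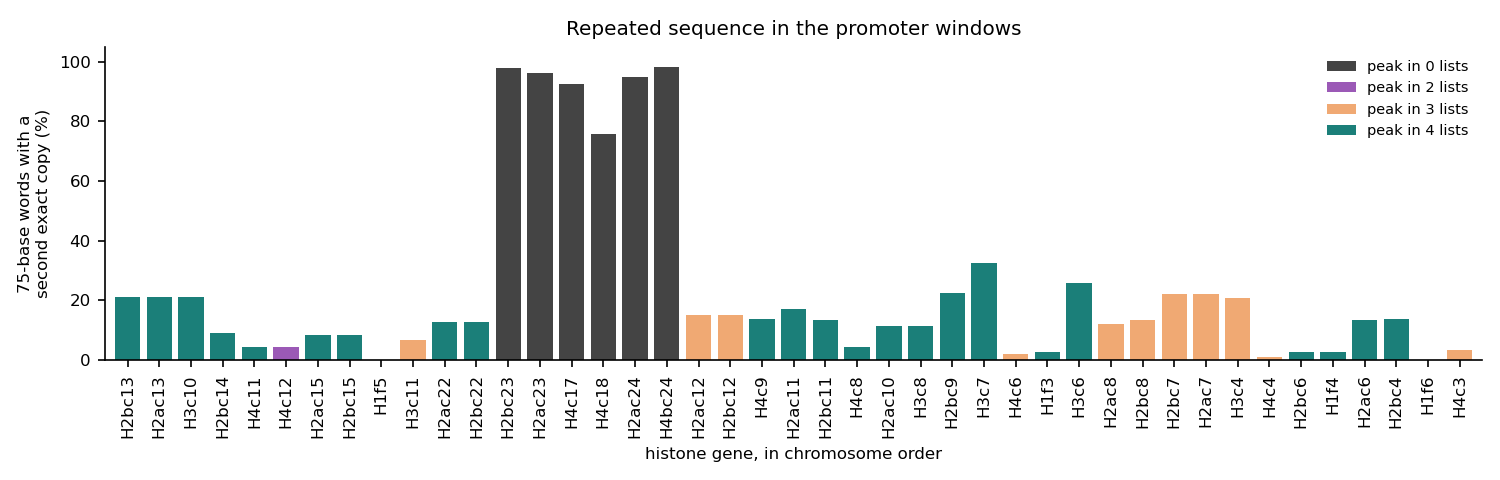
Share of 75-base words in each promoter window with a second exact copy in the genome, in percent, for the 43 histone genes in chromosome order, with bars colored by the number of lists with a promoter peak. The 6 genes at 75.8% or more had a peak in 0 lists, and the bars of H1f5 and H1f6 have no height because their value is 0%.

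Many members had a strong peak at E14.5. The best promoter peak lay in the top 10% of the list for 30 members in embryonic epithelium, against 41.9% of all genes, and for 35 in embryonic fibers, against 47.5%. At P0.5 this held for 4 members in epithelium, against 27.7% of all genes, and for 5 in fibers, against 30.1%. The shares at E14.5 depended on how peaks were counted. With each list cut to the same number of peaks, 27.9% of members in embryonic epithelium (12 of 43) and 34.9% in embryonic fibers (15 of 43) were in the top 10%, against 28.3% and 29.1% of all genes, so that the members no longer stood above all genes in epithelium. With a peak counted only for its nearest start site the shares were 41.9% and 55.8%, against 37.4% and 42.7%. The median rank over members with a peak was 6.95%, 4.89%, 17.98% and 26.4% of the list in embryonic epithelium, embryonic fibers, newborn epithelium and newborn fibers. Over all genes with a peak it was 7.68%, 6.10%, 12.8% and 10.3%. Among genes with a peak, members thus ranked above the median in both embryonic lists and below it in both newborn lists. The median place, which counts genes without a peak as last, was 33.2%, 33.7%, 44.4% and 58.5% for the 43 members and 49.6%, 49.7%, 48.9% and 47.7% for all genes, so that by this measure the members stood above the median gene in newborn epithelium too.

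Neighboring histone genes often shared a peak, so the members are not independent of each other. In embryonic epithelium the best peaks of 37 members were 23 distinct peaks, and in the other lists they were 22, 21 and 13. A peak lay within 2 kb of up to 4 members in embryonic fibers and of up to 3 in the other lists.

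H3c6, an H3 gene whose peak no other member shares, carried the best-ranked peak of all members in both embryonic lists. Its peak ranked at 2.72% of the list in embryonic epithelium, 2.21% in embryonic fibers, 9.96% in newborn epithelium and 11.4% in newborn fibers. The summit lay 3 to 10 bp upstream of its start site in every list. Its place among all genes was 14.1% and 14.4% at E14.5 and then 26.6% in newborn epithelium and 32.7% in newborn fibers, so that it stood lower at P0.5 in both tissues.

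H3c8, an H3 gene, kept a strong peak at P0.5, which lay within 2 kb of the H2A gene H2ac10 before it on the plus strand. It was the best peak of both genes in 3 of the lists, and its summit lay 101 to 141 bp upstream of the start site of H3c8 in every list. It ranked at 4.32% of the list in embryonic epithelium, 6.64% in newborn epithelium and 3.45% in newborn fibers. In embryonic fibers the peak of H3c8 ranked at 2.79%, and the best peak of H2ac10, at 2.47%, was that of the upstream gene H4c8. The place of H3c8 among all genes was 21.6%, 17.9%, 18.6% and 10.8% in embryonic epithelium, embryonic fibers, newborn epithelium and newborn fibers. H3c8 thus held the highest place of all members in both newborn lists, together with H2ac10, which held it through this peak, whose summit in both newborn lists lay 1442 bp downstream of the H2ac10 start site.

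H4c8, the H4 gene next to them, ranked at 4.09%, 2.47%, 8.34% and 7.65% of the list in the same order. The summit of its peak lay 701 to 727 bp downstream of its start site. Together with H2bc6 and H1f4, which shared a peak at the start site of H1f4 (7.65% of the newborn fiber list), H4c8, H2ac10 and H3c8 formed the 5 members in the top 10% of newborn fibers, a count that was 3 with a window of 1 kb. H2bc6 was counted there through its outer start sites, from which spliced transcripts begin. Its inner start site, that of the unspliced transcript, lies 35154 bp from the outermost one. The best peak within 2 kb of the inner site ranked at 15.2% of the list in embryonic epithelium, 9.15% in embryonic fibers and 52.3% in newborn epithelium, and no peak was called there in newborn fibers. H2ac6 and H2bc4, an H2A and H2B pair, shared a peak at 4.21% of the list in embryonic epithelium, 4.32% in embryonic fibers, 12.3% in newborn epithelium and 21.4% in newborn fibers.

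Between E14.5 and P0.5 in epithelium, most members kept a peak at a lower place. The peak was present at E14.5 and absent at P0.5 for 2 members, H4c12 and H1f6, against 4.31% of all genes, and the reverse held for 0 members, against 1% of all genes. H4c12, an H4 gene, had a peak of 553 bp at 18.3% of the embryonic epithelium list with its summit 7 bp from its start site, and in embryonic fibers its peak stood at 58.1%. H1f6 had a peak of 115 bp at 55.5% of the embryonic epithelium list. In embryonic fibers its window reached into the peak of its neighbor H4c3, with a summit 2690 bp downstream of the H1f6 start site. Both members thus had weak or borrowed peaks in at least 1 of the embryonic lists.

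Of the 37 members with a peak in either epithelium list, 34 had a lower place among all genes at P0.5, against 50.7% of all genes. Over these members the median place was 32.5% in the embryo and 41.9% in the newborn. The median of the differences within a gene was 9.46 percentage points toward a lower place, and over all genes with a peak in either list it was 0.138 points. H2ac10, H3c8 and H2bc14 were the 3 members with a higher place at P0.5, and for H2bc14, an H2B gene, the places were 35.8% and 35.0%.

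In fibers, 14 members had a peak at E14.5 and none at P0.5, against 8.28% of all genes, and 0 members showed the reverse, against 1.72%. The 14 members were H4c12, H1f5, H3c11, H2ac12, H2bc12, H4c6, H2ac8, H2bc8, H2bc7, H2ac7, H3c4, H4c4, H1f6 and H4c3. Among genes with a peak in embryonic fibers the share without one at P0.5 was 11.6%. Most of the 14 had strong peaks at E14.5. Of the 35 members in the top 10% of the embryonic fiber list, 12 had no peak in newborn fibers, against 1.49% of the genes in that top 10%. These 12 members are not separate losses, since several counted through the same embryonic fiber peak. H2bc8, H2bc7, H2ac7 and H3c4 shared their best peak there, as did H2ac12 with H2bc12, and H1f6 counted through the peak of H4c3. In epithelium, 0 of the 30 members in the top 10% of the embryonic list had no peak at P0.5, against 0.0341% of the genes there.

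The H2A and H2B pair H2ac12 and H2bc12 shows this pattern. Its shared peak ranked at 4.62% of the embryonic epithelium list, 3.92% of the embryonic fiber list and 16.5% of the newborn epithelium list, and no peak was called in newborn fibers. At E14.5 the peak was 1399 bp wide in epithelium and 1674 bp in fibers. The −log10 q value of the peak was 171 and 267 at E14.5 and 28.6 in newborn epithelium. H4c3, an H4 gene at the far end of the third stretch, ranked at 6.12%, 4.89% and 15.1% in these lists and likewise had no peak in newborn fibers. H2bc7, H2ac7 and H3c4, which share 1 peak in each list but the newborn fiber list, ranked at 6.95%, 5.72% and 20.5%.

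By contrast, the pair H2ac22 and H2bc22 kept a peak in newborn fibers, but a weak one. Its shared peak ranked at 4.68% of the list in embryonic epithelium, 4.003% in embryonic fibers, 12.3% in newborn epithelium and 48.9% in newborn fibers. The −log10 q value was 169, 263, 38.4 and 2.76. At E14.5 this pair and H2ac12 with H2bc12 thus had similar ranks, and in newborn fibers they differed by a peak of 416 bp with a q value above 0.001.

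Over the 37 members with a peak in either fiber list, 33 had a lower place among all genes at P0.5, against 47.1% of all genes. The median place was 29.7% at E14.5 and 58.5% at P0.5, and the median difference within a gene was 25.2 percentage points toward a lower place. Over all genes with a peak in either list the median difference was -0.681 points, toward a higher place. The 4 members with a higher place in newborn fibers were H2ac10, H3c8, H1f4 and, through the peak it shares with H1f4, H2bc6. For the last 2, the place was 29.1% at E14.5 and 23.4% at P0.5.

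At E14.5 the same members had a peak in both tissues, and 0 members had one in a single tissue, against 1.59% of all genes with a peak in epithelium alone and 2.5% in fibers alone. The place was lower in fibers for 24 of 37 members, against 48.5% of all genes, with a median difference within a gene of 1.205 percentage points. The median place over these members went the other way, with 32.5% in epithelium and 29.7% in fibers, so that no direction can be read from this comparison. At P0.5, 12 members had a peak in epithelium and none in fibers, against 5.84% of all genes, and 0 had the reverse, against 3.51%. These 12 are the 14 named above without H4c12 and H1f6. In newborn epithelium their peaks ranked from 15.1% (H4c3) to 33.9% (H2ac8 and H2bc8) of the list, with a median of 20.5%. The 23 members with a peak in both tissues ranked from 6.64% to 33.9% there, with a median of 17.2%, so that the ranges overlap.

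The place was lower in newborn fibers than in newborn epithelium for 30 of 35 members, against 47.1% of all genes, with a median difference of 16.04 percentage points. For all genes with a peak in either list it was -0.876 points. H2ac10, H3c8, H2bc6, H1f4 and H1f3, the last an H1 gene with places of 47.9% and 44.3%, were the 5 members with a higher place in newborn fibers. Whether fewer cells with an open promoter or less open promoters in each cell lie behind a weaker peak cannot be told apart in bulk samples.

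The coverage of the promoter window was lower at P0.5 than at E14.5 in both tissues and, unlike the place, was higher in fibers than in epithelium for most members at E14.5. Its median over the 43 members was 31.8% in embryonic epithelium, 41.8% in embryonic fibers, 13.7% in newborn epithelium and 2.75% in newborn fibers. Over all genes it was 19.2%, 24.6%, 12.6% and 8.90%. With this count, which gives a peak to every window it reaches, the medians of the members lay above those of all genes in 3 lists and below in newborn fibers. With a peak counted only for its nearest start site the direction turned in the first 3 lists, where the medians were 15.6%, 18.5% and 7.07% for members and 16.1%, 21.04% and 10.2% for all genes. In newborn epithelium it also turned with windows of 500 bp (36.7% against 41.6%) and 1 kb (20.4% against 23.4%). The widest coverage among members was 71.0% (H2ac11, embryonic fibers), and in newborn fibers it was 14.2% (H4c8). Coverage was lower at P0.5 for 37 of 37 members in epithelium, against 91.2% of all genes, and for 37 of 37 in fibers, against 94.9%. It was lower in newborn fibers than in newborn epithelium for 35 of 35 members, against 67.4%, and lower in embryonic fibers than in embryonic epithelium for 2 of 37, against 16.5%. These 2 members were H4c11 (48.2% in epithelium and 43.3% in fibers) and H2ac8 (30.8% and 29.9%), while H2bc14 had 28.1% in both tissues.

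**Figure D3:**
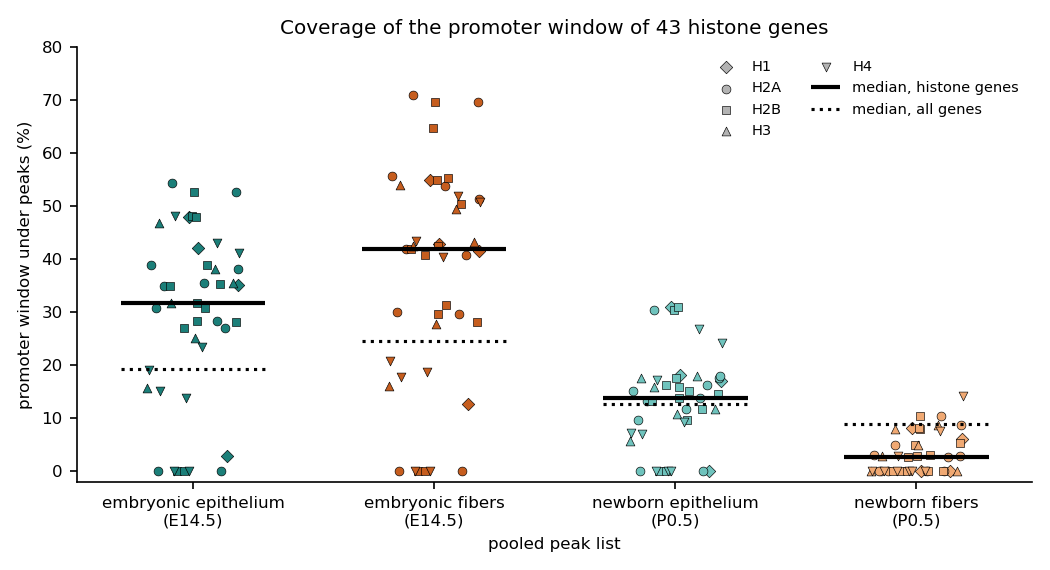
Share of the promoter window (2 kb on either side of the start site) under peaks, in percent, for each of the 43 histone genes in each pooled list, with symbols by histone class, solid bars for the median of the histone genes and dotted bars for the median of all 21000 genes. The median of the histone genes is 41.8% against 24.6% for all genes in embryonic fibers, where it turns to 18.5% against 21.04% with peaks counted only for their nearest start site, and 2.75% against 8.90% in newborn fibers, and the 6 genes at 0% in every list are those in repeated sequence.

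The peaks themselves differed in width. The best promoter peak of the members had a median width of 1082 bp in embryonic epithelium, 1602 bp in embryonic fibers, 443 bp in newborn epithelium and 195 bp in newborn fibers. For all genes the widths were 981, 1249, 704 and 561 bp. Members that share a peak count it more than once here. With each distinct peak counted once, the median widths were 990.0, 1510.5, 441 and 195 bp for the members and 957, 1210.5, 690.0 and 548 bp for all genes. The peaks of the members were thus close to those of all genes in width in embryonic epithelium, wider in embryonic fibers and narrower in both newborn lists. Of the 37 members outside the repeated sequence, 94.6% had a peak over the start site itself in both embryonic lists, 89.2% in newborn epithelium and 32.4% in newborn fibers. For all genes the shares were 60.3%, 62.2%, 56.2% and 48.0%. At 1 kb upstream of the start site a peak covered 18.9% of these members in embryonic epithelium and 40.5% in embryonic fibers, against 7.65% and 12.4% of all genes. It covered 2.70% of them in both newborn lists, against 3.54% and 2.99% of all genes. At 1 kb downstream the members were covered less often than all genes, with 8.11% against 14.9% in embryonic epithelium, 13.5% against 24.4% in embryonic fibers, 2.70% against 6.74% in newborn epithelium and 0% against 6.75% in newborn fibers.

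**Figure D4:**
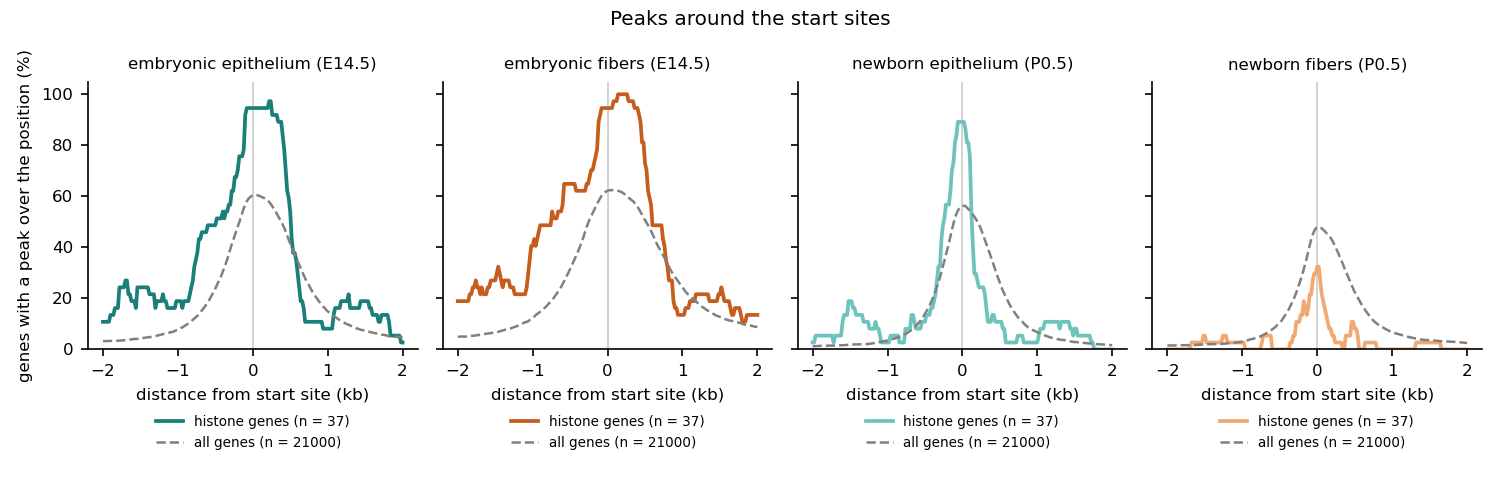
Share of genes with a peak over each position from 2 kb upstream (negative) to 2 kb downstream of the start site, in percent, in each pooled list, for the 37 histone genes outside the repeated sequence (solid lines) and all 21000 genes (dashed lines). At the start site the histone genes reach 94.6% in both embryonic lists and 32.4% in newborn fibers, where all genes reach 48.0%.

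All classes of histones were represented among the members with and without a peak in newborn fibers. Outside the repeated sequence, a newborn fiber peak was called within 2 kb at 2 of 4 H1, 6 of 9 H2A, 8 of 11 H2B, 4 of 6 H3 and 3 of 7 H4 genes, against 64.6% of all genes. The summit lay within 250 bp of the start site for 2 H1, 4 H2A, 5 H2B, 2 H3 and 0 H4 genes. Over all genes with a peak there, this share was 71.3%. For H4c11 and H4c8 the summit lay 505 and 727 bp downstream, and the best peak of H4c9 was that of H2ac11 and H2bc11. In the other 3 lists a peak was called at every member outside the repeated sequence except H1f6 and H4c12 in newborn epithelium. The H1 genes split into H1f3 and H1f4, with a newborn fiber peak, and H1f5 and H1f6, without one. H1f3 stood at 9.01%, 7.27%, 22.5% and 18.2% of the list in embryonic epithelium, embryonic fibers, newborn epithelium and newborn fibers. H1f5 stood at 11.5%, 7.04% and 27.9% in the first 3 lists, and the summit of its best peak lay 1125 to 1127 bp downstream of its start site.

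Outside the repeated sequence, the H4 genes had the lowest median place of the core histones in all 4 lists. It was 43.4% and 44.9% of all genes in embryonic epithelium and fibers, against 31.2% and 26.7% for H2A, 32.5% and 29.1% for H2B, and 32.5% and 29.5% for H3. In newborn epithelium it was 45.7% for H4, 40.7% for H2A, 40.7% for H2B and 42.6% for H3. In newborn fibers 4 of 7 H4 genes had no peak. The classes hold few genes and share peaks, and no difference between them was tested. The 9 H4 genes code for 1 protein of 103 amino acids, so that the H4 genes that differ in the lists do not differ in their product. Likewise 8 of the 11 H2A genes code for the same protein of 130 amino acids, among them H2ac22, with a newborn fiber peak, and H2ac7 and H2ac8, without one. The 6 H3 genes code for 2 proteins, and H3c10, H3c11 and H3c8 share 1 of them, while only H3c11 of these 3 had no newborn fiber peak within 2 kb. The peak counted for H3c10 is that of its neighbors H2ac13 and H2bc13, with its summit 1208 bp upstream of the H3c10 start site and 8 bp from that of H2ac13.

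Of the 10 head-to-head pairs, 8 had a peak within 2 kb of both start sites in embryonic epithelium, embryonic fibers and newborn epithelium, and 5 did in newborn fibers. Such a peak need not lie on the start sites. In newborn fibers the peak of H2ac6 with H2bc4, 124 bp wide, had its summit 426 bp downstream of the H2bc4 start site. The pairs with a newborn fiber peak were H2bc13 with H2ac13, H2ac15 with H2bc15, H2ac22 with H2bc22, H2ac11 with H2bc11, and H2ac6 with H2bc4. The pairs H2ac12 with H2bc12, H2ac8 with H2bc8, and H2bc7 with H2ac7 had none there, and the pairs in the repeated sequence had none in any list. Of the 3 spacers with the octamer, 2 belong to pairs without a newborn fiber peak and 1 to a pair with one.

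By position, a newborn fiber peak was called at 9 of 12 members outside the repeated sequence in the first stretch, 3 of 5 in the second and 11 of 20 in the third. In the third stretch, 6 neighbors in a row, from H2ac8 to H4c4, had no newborn fiber peak. The newborn fiber peaks of the first stretch were weak, with ranks between 26.4% and 48.9% of the list, and the 5 members in the top 10% all lay in the third. The third stretch held 23 peaks in embryonic epithelium, 27 in embryonic fibers, 20 in newborn epithelium and 9 in newborn fibers.

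The remaining replication-dependent histone genes were read in the same way. Of the 11 genes of the chromosome 13 cluster beyond 23.7 Mb, 9 had a promoter peak in each of the first 3 lists and 2 (H1f2 and H4c2) had one in newborn fibers. The 2 without any peak were H2ac1 and H2bc1, which code for testis histones. Of the 13 such genes on other chromosomes, 13, 13, 11 and 10 had a peak in embryonic epithelium, embryonic fibers, newborn epithelium and newborn fibers. Their median place among all genes was 37.96%, 34.2%, 52.6% and 58.5%, beside 33.2%, 33.7%, 44.4% and 58.5% for the 43 members.

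Genes that act on the histone genes and their products all had a promoter peak in every list, most of them a strong one. These genes were grouped by known role. The 10 genes for transcription of histone genes, such as Npat, the coactivator of the histone locus body, and Hinfp, which binds H4 promoters, all had a peak in every list, with median places of 5.93%, 4.61%, 10.6% and 4.48%. Npat stood at 2.35%, 3.1%, 3.98% and 0.695% of all genes. The 11 genes for processing of histone mRNA, such as Slbp, which binds the stem-loop, and the 7 histone chaperone genes also had a peak in every list. Slbp stood at 8.49%, 21.8%, 16.7% and 9.85%. Srrt, one of the RNA processing genes, had among the weaker peaks, at 46.1%, 43.6%, 59.5% and 51.4%, and E2f2, a transcription factor of the cell cycle, stood at 51.4% in newborn fibers. In newborn fibers 0 of these 28 genes were without a peak, beside 37.8% of the 37 members outside the repeated sequence and 35.4% of all genes.

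Replacement histones can be made outside DNA replication. All 11 replacement variant genes, among them H2ax and the H1 genes H1f0 and H1f10, had a promoter peak in the first 3 lists and 10 did in newborn fibers. The exception was Cenpa, which codes for the H3 variant of the centromere and stood at 29.5%, 39.2% and 44.4% in the first 3 lists. The median place of the replacement variants was 10.5%, 12.8%, 33.9% and 21.3%. H3f3a, which codes for H3.3, stood at 7.42%, 9.10%, 19.4% and 10.8%, and H2az1 stood at 0.810%, 4.75%, 1.02% and 4.18%. In newborn fibers the replacement variants thus stood above the median member by 37.2 percentage points.

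**Figure D5:**
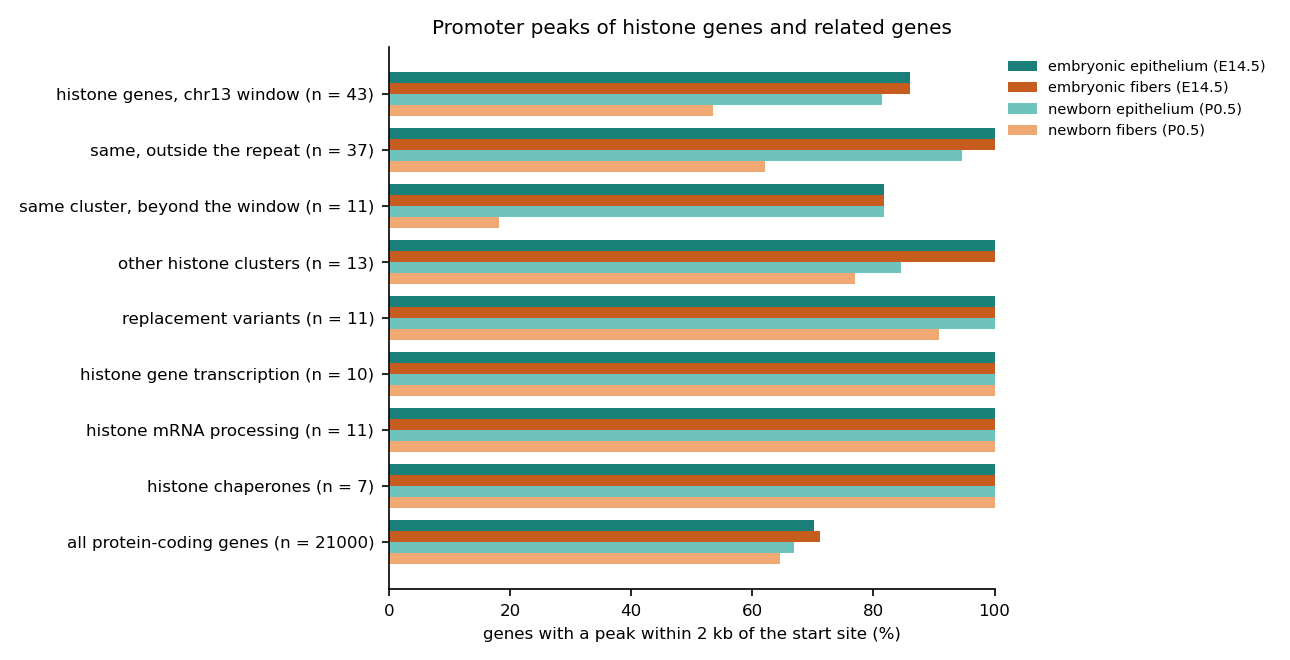
Share of genes with a promoter peak within 2 kb of the start site, in percent, in each pooled list (colors), for the 43 histone genes, the 37 of them outside the repeated sequence, 6 other gene lists, and all 21000 protein-coding genes, with n beside each name. The histone genes of the cluster reach 53.5% in newborn fibers and 18.2% beyond the window, while the 3 lists of genes that act on histones stay at 100%.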

How the data were processed

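Per the labels, ATAC-seq was run on lens epithelium and lens fibers at E14.5 (here embryonic) and P0.5 (newborn). The authors trimmed 75-bp read pairs (Trim Galore 0.4.1), mapped them to mm10 (Bowtie2 2.3.3.1), filtered them (SAMtools 1.2, Picard 2.1.1), merged both libraries of each group and ran MACS2 2.1 with a q threshold of 0.05. The deposited lists give, as the authors' caller wrote them, the fold enrichment at the summit (a ratio to local background), its −log10 p and −log10 q, and the summit position as a whole number of bases from the peak start. Fold enrichment was used for ranks within a list and never compared between lists. The methods name no control library. Each list was taken as 1 pooled sample, and 0 columns were left unassigned.

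Genes, start sites and sequences came from RefSeq on GRCm38.p6 (37867 curated transcripts of 21000 protein-coding genes). A gene had a promoter peak if any peak overlapped 2 kb on either side of any start site. Coverage used the outermost 5′ start site. Ties shared the better rank, and genes without a peak were placed at 100%. Repeated 75-base words were counted by exact match on both strands of the 21 chromosomes. Python 3.11.15, pandas 2.3.3, numpy 2.4.6, pysam 0.24.0, biopython 1.88, scipy 1.17.1 and matplotlib 3.10.9 were used. On simulated data, 100% of 4000 start sites received the right peaks.

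Members and gene lists were chosen with earlier results of these data known. The genes that could be named were every member, with values for the 5 best-ranked of each list, those without a peak in any list or differing between tissues of a stage, those in head-to-head pairs, and the genes of the lists by role. With 1 pooled list a group there was no spread between replicates, so members were set beside all genes without a test. Alternatives were other promoter windows, a q value under 0.001, equal numbers of peaks, other ways to place a peak, other transcripts and other member sets.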

Additional observations from a re-analysis of the deposited data

How the results depend on the processing

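No paired analysis was possible because each group is 1 pooled list, and for the same reason no library could be left out. Of 252 values recomputed under alternatives, 215 stayed within 1.5 times the reported count or within the 95% order-statistic interval of the reported median, and 37 did not. For newborn fibers that interval is wide, from 54.8% to 100% for the median place and from 0% to 4.87% for coverage. Inside it, the median place went from 58.5% to 100% and coverage from 2.75% to 0% with windows of 500 bp and 1 kb, a q value under 0.001, the nearest start site only and the cluster beyond 23.7 Mb added, since under these settings most members had no peak there, and over the gene body coverage was 0% as well. Ranking by p value, asking for the summit in the window, adding predicted transcripts and leaving out the 6 members in repeated sequence (an alternative chosen after seeing the data) moved 0. The number of members with a newborn fiber peak was 18 at a q value under 0.001, where 58.5% of all genes had one, and 15 when a peak counted only for the nearest start site. That last setting also gave 18 members in the top 10% of embryonic epithelium and 3 in that of newborn fibers, 1 member with a peak in embryonic epithelium and not in embryonic fibers, median ranks of 7.79%, 7.27% and 20.5% and median places of 40.4%, 40.8% and 48.0% in the first 3 lists, and coverages of 15.6%, 18.5% and 7.07% there (16.1%, 21.04% and 10.2% over all genes, so that members lay below and not above), since a shared peak then counts once. With equal numbers of peaks, embryonic epithelium and fibers had 12 and 15 members in the top 10% (28.3% and 29.1% of all genes) and median ranks of 11.9% and 10.3%, and 1 member had a peak in embryonic epithelium and not in embryonic fibers. These lists are shorter by construction, so the top 10% holds fewer peaks. A q value under 0.001 gave median ranks of 7.90%, 20.7% and 48.9% in embryonic epithelium, newborn epithelium and newborn fibers and 2 members in the top 10% of newborn fibers. Windows of 500 bp and 1 kb gave coverages of 75.9% and 53.6% in embryonic epithelium, 90.7% and 59.9% in embryonic fibers and 36.7% and 20.4% in newborn epithelium (all genes 41.6% and 23.4%, which turned the direction there), 2 and 3 members in the top 10% of newborn fibers, and in both cases 1 member with a peak in embryonic and not in newborn epithelium, as did leaving out the testis gene H1f6. Over the gene body, coverage was 95.1%, 100% and 24.6% in the first 3 lists. With the cluster beyond 23.7 Mb, 19 genes had a peak in newborn epithelium and not in newborn fibers. The causes of the other moves were not tested. The newborn fiber list limits what can be read, since 48.9% of its peaks had a q value under 0.001 and many weak peaks share a rank.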

Other observations

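The DNA between the histone stretches holds genes of other families. Between the second and the third stretch lie 36 vomeronasal receptor genes, which code for pheromone receptors of sensory neurons, and 0 of the 36 had a promoter peak in any list. Of 8 other protein-coding neighbors, 7, 6, 6 and 5 had one in embryonic epithelium, embryonic fibers, newborn epithelium and newborn fibers. Abt1, a gene for ribosome production, stood at 28.6%, 22.8%, 44.4% and 23.4% of all genes. In newborn fibers the share with a peak was 62.5% of these 8 neighbors, 62.2% of the 37 histone genes outside the repeated sequence and 64.6% of all genes.

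Transfer RNA genes also lie between the stretches, 31 between the first and the second and 45 between the second and the third. The 194 kb between the first and the second stretch held 29 peaks in embryonic epithelium, 40 in embryonic fibers, 13 in newborn epithelium and 16 in newborn fibers, and 5.56%, 13.5%, 2.09% and 2.44% of it lay under peaks. In the third stretch, with 20 histone genes, the shares were 9.40%, 13.1%, 4.29% and 1.24%. The share under peaks was higher in newborn fibers than in newborn epithelium between the stretches and lower within the third stretch.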
